A study of Caenorhabditis elegans with 96 samples.

Results

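The lys genes of Caenorhabditis elegans encode lysozymes of the kind otherwise best known from protists. The 9 genes described here, lys-1 to lys-8 and lys-10, were taken by symbol from the 46904 genes listed in the count tables, and all 9 were found there. Lysozymes cut the peptidoglycan of bacterial cell walls. In a nematode that feeds on bacteria they serve both digestion and defence, and several lys genes are transcribed in the intestine and induced by bacterial pathogens. lys-7 and lys-8 are known targets of insulin signalling through the transcription factor DAF-16, and lys-8 also responds to the TGF-beta ligand DBL-1.

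RNA was sequenced from 85 recombinant inbred advanced intercross lines, each a largely homozygous mosaic of both parental genomes, and from the parents, namely N2, on which the reference genome is based, and CB4856, isolated in the wild on Hawaii. The lines gave 1 library each, N2 gave 4 libraries and CB4856 gave 7. All groups were whole L4 animals, larvae at the stage before adulthood, and all carried the label Cntrl for treatment. Every strain was kept on Escherichia coli OP50, bleached for eggs, held overnight as hatched L1 larvae, and then fed E. coli HT115 until harvest, so no library came from animals given a pathogen.

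The titles place the libraries in 7 batches, numbered 2, 3, 4, 6, 7, 8 and 9. CB4856 was in each batch once and N2 was in batches 3, 6, 8 and 9 once. No line was measured in more than 1 batch. Libraries held 22069702 to 24001627 gene counts. The labels do not say that parental libraries came from separate cultures, so p-values measure the spread between these libraries. Whole-animal RNA also cannot tell fewer cells of a type from less RNA per cell. The 10 intestinal genes listed as markers were detected, with a summed level of 5336 ± 1232 CPM (counts scaled to 1e+06 gene counts per library; SD, n = 4) in N2 and 5340 ± 1338 CPM in CB4856 (n = 7). Other lists did differ in stage and germline. Of 13 sperm genes tested, 11 were higher in N2, and of 13 oocyte genes tested, 10 were lower in N2, by the test described below for the parents, which called 33.9% of all genes tested (17.9% higher in N2).

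Positions are on the WBcel235 assembly. lys-1 (V, 10277904 to 10279056), lys-2 (V, 10280307 to 10281474) and lys-3 (V, 10282100 to 10283544) lie side by side within 5641 bases. lys-4 (IV, 11621429 to 11623174), lys-5 (IV, 11624252 to 11625582) and lys-6 (IV, 11626910 to 11627947) form a second run of neighbours within 6519 bases. No other gene lies in the gaps of either run. lys-7 (V, 3481432 to 3482600), lys-8 (II, 5586178 to 5587651) and lys-10 (IV, 8332826 to 8333518) lie apart. All 9 are protein coding. The exons of lys-8 overlap those of C17G10.13 on the other strand, and reads over both genes were left out of the deposited counts.

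The lys genes differed widely in abundance per kilobase of exon. lys-1 was the most abundant, at 438 ± 148 CPM per kb across the lines (SD, n = 85). lys-4 followed at 168 ± 81.4 and lys-8 at 152 ± 43.7 CPM per kb, a difference smaller than either spread. lys-2 averaged 99.5 ± 48.9 CPM per kb and lys-7 averaged 58.7 ± 46.3, again with overlapping spreads. The other 4 genes were low. lys-6 averaged 3.68 ± 2.86 CPM per kb, lys-5 2.37 ± 1.75, lys-10 0.753 ± 0.693 and lys-3 0.621 ± 1.10. Of the 85 lines, 2 had 0 counts of lys-3 and 2 had 0 counts of lys-10. A count of 0 allows a level of up to 0.125 to 0.136 CPM, depending on the library (3 counts; counting error alone).

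**Figure D1:**
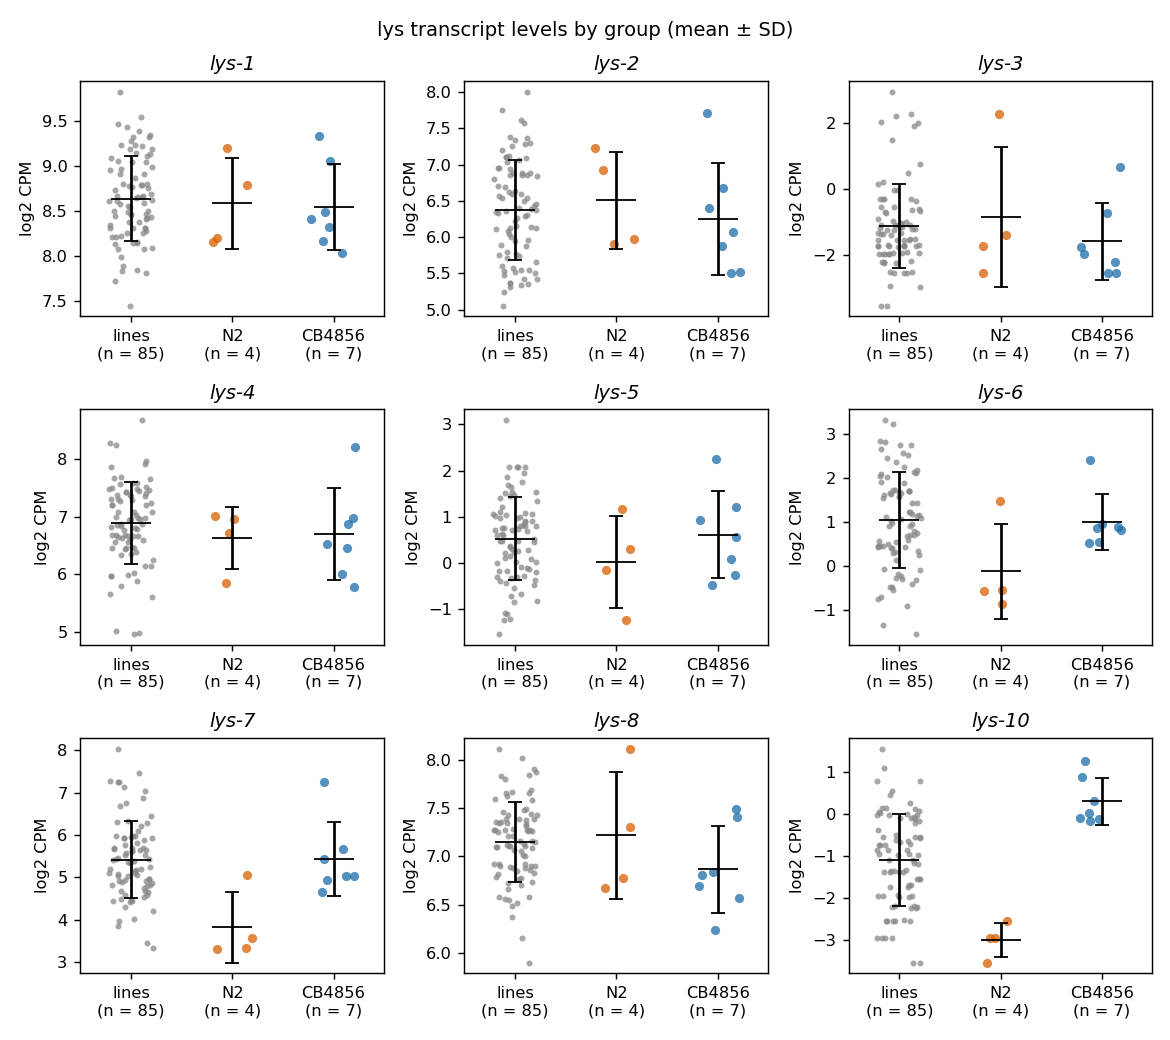
Level of each lys gene in log2 CPM (prior count 2) in the 85 lines, 4 N2 libraries and 7 CB4856 libraries; points are libraries and bars are mean ± SD, with a separate vertical scale in each panel. The N2 and CB4856 points are apart for lys-10 and overlap for the other 8 genes.

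The parents were compared to find which lys genes differ between the strains that were crossed. lys-10 and lys-7 were both lower in N2 than in CB4856, and no lys gene was called higher in N2 in the fit without a batch block. By edgeR's quasi-likelihood test with Benjamini-Hochberg adjustment, these were 2 of the 8 lys genes tested at an adjusted p under 0.05, against 33.9% of all 14858 genes tested. The median log2 fold change, N2 over CB4856, was -0.48 over the 8 lys genes and 0.03 over all genes tested. At an unadjusted p under 0.05 no further lys gene was included. DESeq2's Wald test also called 2 lys genes, both lower in N2.

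lys-10 differed most. It had 2, 1, 0 and 1 counts in the N2 libraries of batches 3, 6, 8 and 9, which is 0.0842, 0.0428, 0 and 0.0425 CPM. In CB4856 the lowest library had 0.801 CPM, the median was 0.930 CPM and the highest was 2.30 CPM, from 19 to 54 counts. Every CB4856 library was thus above every N2 library, and lys-10 was the only lys gene whose parental ranges did not overlap, a property shared by 16.4% of all genes tested. The fitted log2 fold change, N2 over CB4856, was -4.72 ± 0.57 (SE; adjusted p = 9.05e-05, edgeR). Summed counts were 4 in N2 and 202 in CB4856, and the CB4856 level was 28.8 times the N2 level with a 95% interval of 11.1 to 107 that covers counting error alone.

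lys-7 was at 10.02, 11.8, 9.75 and 33.03 CPM in the N2 libraries of batches 3, 6, 8 and 9. In CB4856 the lowest library had 25.2 CPM, the median was 32.7 CPM and the highest was 152 CPM. The groups overlapped through the N2 library of batch 9, and the highest CB4856 value came from batch 4. The log2 fold change was -1.71 ± 0.56 (SE; adjusted p = 0.0349, edgeR). Within each of the 4 batches that hold both parents lys-7 was lower in N2, by ratios of N2 to CB4856 of 0.397, 0.364, 0.226 and 0.649 in batches 3, 6, 8 and 9. With the summed level of 15 moult and cuticle genes as a covariate the log2 fold change was the same, -1.71, but its adjusted p was 0.0525 (edgeR). The call was also lost without the filter on low counts (log2 -1.73, adjusted p = 0.07996) and without the N2 library of batch 3 (-1.57, 0.0768), 6 (-1.60, 0.108) or 8 (-1.53, 0.106). Without the N2 library of batch 9 the log2 fold change was -2.33 (adjusted p = 0.00986) and without the CB4856 library of batch 4 it was -1.15 (adjusted p = 0.0353).

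lys-6 had 0.589, 0.470, 0.599 and 2.72 CPM in the N2 libraries of batches 3, 6, 8 and 9. In CB4856 the lowest value was 1.35 CPM, the median 1.73 CPM and the highest 5.24 CPM, the last from batch 9. The 3 other N2 libraries were below every CB4856 library, while the N2 library of batch 9 was above 6 of the 7. The log2 fold change was -1.01 ± 0.55 (SE; adjusted p = 0.181, edgeR), and N2 was below CB4856 in 4 of 4 batches. Without the N2 library of batch 9 it was -1.98 ± 0.46 (adjusted p = 0.00502), and without both parental libraries of that batch, a choice made after seeing the data, it was -1.60 ± 0.23 (adjusted p = 0.000426). That N2 library also had the lowest summed levels of sperm genes (85.0 CPM, against 182 to 319 CPM in the other N2 libraries) and of moult and cuticle genes (66.2 CPM, against 167 to 444 CPM), and their part in the lys-6 values was not tested.

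lys-5, the neighbour of lys-6, had 0.337, 1.15, 0.812 and 2.17 CPM in the N2 libraries of batches 3, 6, 8 and 9, and 0.635, 1.39 and 4.69 CPM as lowest, median and highest in CB4856. These ranges overlapped broadly, and lys-5 did not pass the test (log2 -0.71 ± 0.60 SE, adjusted p = 0.380, edgeR). Its log2 value was -0.25 without the CB4856 library of batch 9 and -1.24 without the N2 library of that batch. lys-4, at the other side of lys-5, had 57.8, 125, 105 and 129 CPM in those N2 libraries, and 55.01, 91.8 and 298 CPM as lowest, median and highest in CB4856. Its log2 fold change was -0.24 ± 0.43 (SE; adjusted p = 0.684, edgeR).

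The remaining genes did not pass the test either. lys-1 was at 402 ± 144 CPM in N2 (SD, n = 4) and 393 ± 142 CPM in CB4856 (n = 7), which differ by 0.00 ± 0.28 on the log2 scale (SE). lys-2 was at 98.6 ± 44.5 CPM in N2 and 87.6 ± 57.3 CPM in CB4856, a log2 fold change of 0.15 ± 0.42. lys-8 was at 161 ± 79.9 CPM in N2 and 122 ± 38.8 CPM in CB4856, a log2 fold change of 0.37 ± 0.30 (adjusted p = 0.352, edgeR). lys-3 had 7, 5, 2 and 110 counts in the N2 libraries of batches 3, 6, 8 and 9, and 2, 4 and 35 counts as lowest, median and highest in CB4856. The highest value of both strains came from batch 9. The filter on low counts left lys-3 out of the parental fit.

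Since the batch numbers pair parental libraries, the fit was also run with batch as a replicate block. The block brought the count of called lys genes to 5 of 8, while 14.9% of all genes tested were called. lys-10 (log2 -4.71 ± 0.59, adjusted p = 0.00680) and lys-7 (-1.41 ± 0.24, adjusted p = 0.0182) were again lower in N2, and lys-6 (-1.37 ± 0.27, adjusted p = 0.0279) joined them. lys-2 was then higher in N2 (0.54 ± 0.09, adjusted p = 0.0190), as was lys-8 (0.44 ± 0.09, adjusted p = 0.0301; edgeR throughout). Side by side, lys-2 was higher in the N2 library than in the CB4856 library of the same batch in 4 of 4 batches, with ratios of 1.31, 1.82, 1.39 and 1.47. lys-8 was also higher in N2 in 4 of 4, with ratios of 1.35, 1.52, 1.16 and 1.53. So was lys-1, with ratios of 1.09, 1.38, 1.02 and 1.10, though the block fit did not call it (log2 0.16 ± 0.09, adjusted p = 0.229, edgeR). These ratios come from the libraries that the block fit compares, so they are not separate evidence. The share of all genes that lie in 1 direction in 4 of 4 batches was not counted, here or for lys-6 and lys-7 above.

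**Figure D2:**
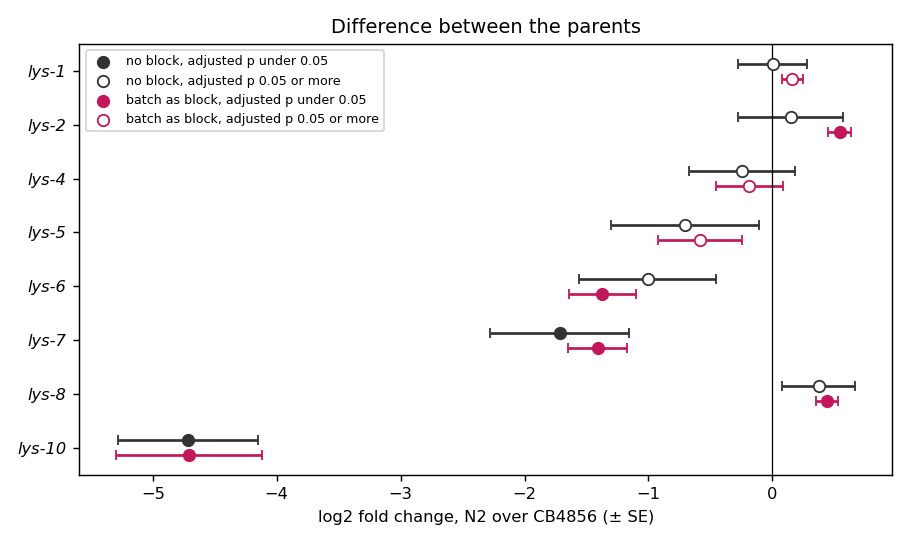
Fitted log2 fold change, N2 over CB4856, of the 8 lys genes tested, with bars of ± SE, without a block (dark) and with batch as a replicate block (pink); filled points have an adjusted p under 0.05. Filled points are 2 without the block and 5 with it, and lys-10 lies near -4.7 in both fits.

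The lines were next set against the parents. In the 85 lines lys-10 ranged from 0 to 2.83 CPM with a median of 0.422 CPM, which covers the gap between the parental ranges. Of the 85 lines, 6 were at or below the highest N2 library, 58 lay between the parental ranges and 21 were at or above the lowest CB4856 library. A single line was above all parental libraries. lys-6 had the most lines above every parental library, 10 of 85, and ranged from 0.257 to 9.88 CPM with a median of 2.02 CPM. For lys-7 the lines ranged from 9.92 to 262 CPM with a median of 41.1 CPM, and 3 lines exceeded all parents. For lys-1 and lys-2, 7 and 10 lines fell below every parental library. The lines outnumber the parental libraries, so some lines can fall outside the parental range even where lines and parents are alike. These counts were not tested, and the share of lines outside the parental range was not counted over all genes.

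Tested as a set, the lines did not depart from the midpoint of N2 and CB4856 for any lys gene. In a fit of all 96 libraries with edgeR's quasi-likelihood test, 0 of 9 were called, as were 0.0364% of 16500 genes. With DESeq2's Wald test 0 of the 8 lys genes that received an adjusted p were called. The largest log2 differences, lines over midpoint, were 0.78 ± 0.38 for lys-6, 0.87 ± 0.33 for lys-7 and 1.12 ± 0.53 for lys-10 (SE; adjusted p 0.614, 0.595 and 0.614, edgeR). The midpoint averages log levels whereas the level of the lines is the log of their mean. Unequal parental levels alone can therefore place a plain mixture above 0. For lys-6 the mean was 2.61 CPM in the lines, 1.09 in N2 and 2.15 in CB4856, so the lines were above both parents. For lys-7 these means were 52.9, 16.2 and 52.4 CPM, and for lys-10 they were 0.522, 0.0424 and 1.23 CPM. The part of this offset in these differences was not tested.

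The variance of log2 CPM among lines was divided by that among replicate libraries within N2 and within CB4856, as a description without a test. For lys-10 this ratio was 4.55, from an SD of 1.09 among lines and 0.51 among parental replicates, and 8.33% of 16500 genes had a higher ratio. The N2 libraries held 0 to 2 counts of lys-10, where the prior count of 2 keeps log2 CPM near a floor and limits the parental SD. With a prior count of 0.5 the lys-10 ratio was 3.60. Counting error at few counts also adds to the SD among lines. lys-6 had a ratio of 1.75 and lys-7 of 1.14, while the median of all genes was 1.59. The other 6 lys genes were between 0.628 for lys-8 and 0.963 for lys-4, whereas 80.6% of all genes exceeded 1. With all libraries kept, these 6 genes thus varied no more among the lines than among libraries of 1 strain. The lys-10 ratio was 3.60 to 7.46 over the alternatives run. Some ratios rest on 1 library. Without the CB4856 library of batch 9 the ratio was 2.04 for lys-4 and 2.54 for lys-6, and without that of batch 4 it was 1.55 for lys-2 and 2.44 for lys-7. Without the N2 library of batch 9 it was 1.46 for lys-3, 3.66 for lys-6 and 0.973 for lys-8. With batch means removed from the lines alone, the ratio was 4.49 for lys-10, 1.22 for lys-6 and 0.613 for lys-7; the parental variance still holds differences between batches, so both sides of this ratio are unlike.

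Most lys genes differed between batches, as did most genes tested. Among the 85 lines, 8 of 9 lys genes passed the test of a difference over the 7 batches (adjusted p under 0.05, edgeR's quasi-likelihood F test), against 79.5% of all genes tested, and lys-10 did not (adjusted p = 0.218). lys-3 was the extreme case. Its median in the lines of batch 9 was 2.14 CPM, against 0.195 to 0.423 CPM in the other 6 batches (adjusted p = 2.85e-17, edgeR). Batch 9 also held the highest medians of lys-6 (5.83 CPM, against 1.03 CPM in batch 3, the lowest) and lys-5 (2.71 CPM, against 0.630 CPM in batch 3).

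Batch 4 had its own profile. Its lines had a median of 131 CPM of lys-7, while the medians of the other batches were 30.4 to 53.1 CPM. lys-2 was also highest in batch 4, with a median of 153 CPM against 46.7 CPM in batch 3, as was lys-1, with 598 CPM against 294 CPM in batch 3. The ratio of the highest to the lowest batch median was 10.97 for lys-3 and 2.17 without batch 9. For lys-6 it was 5.67 and 2.86 without batch 9, for lys-5 4.30 and 2.67, and for lys-7 4.30 with or without batch 9. lys-8 varied least, with a ratio of 1.79. In batch 9 the summed median of the moult and cuticle genes was 89.7 CPM, the lowest of the 7 batches, where the others had 99.4 to 211 CPM. With that sum as a covariate the test over batches still called 8 lys genes.

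The CB4856 library of a batch was compared with its lines. Across the 7 batches, the mean log2 CPM of the lines was correlated with that of the CB4856 library of the batch for 8 lys genes, with Pearson's r of 0.84 to 0.97 (exact two-sided permutation test, adjusted p 0.00536 to 0.0400 over the 9 genes). For lys-10 r was 0.49 (exact permutation, adjusted p = 0.283). By Spearman's rho only lys-1 (0.89, adjusted p = 0.0369), lys-2 (0.96, adjusted p = 0.0125) and lys-4 (0.96, adjusted p = 0.0125) passed the exact permutation test. Without the 2 batches farthest from the median, r was 0.45 for lys-6 and 0.36 for lys-7, so these relations rest on those batches. This comparison was added after the data had been seen and was run for the 9 lys genes alone. Its rate over all genes is thus not known, and 79.5% of all genes tested differed between batches among the lines.

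**Figure D3:**
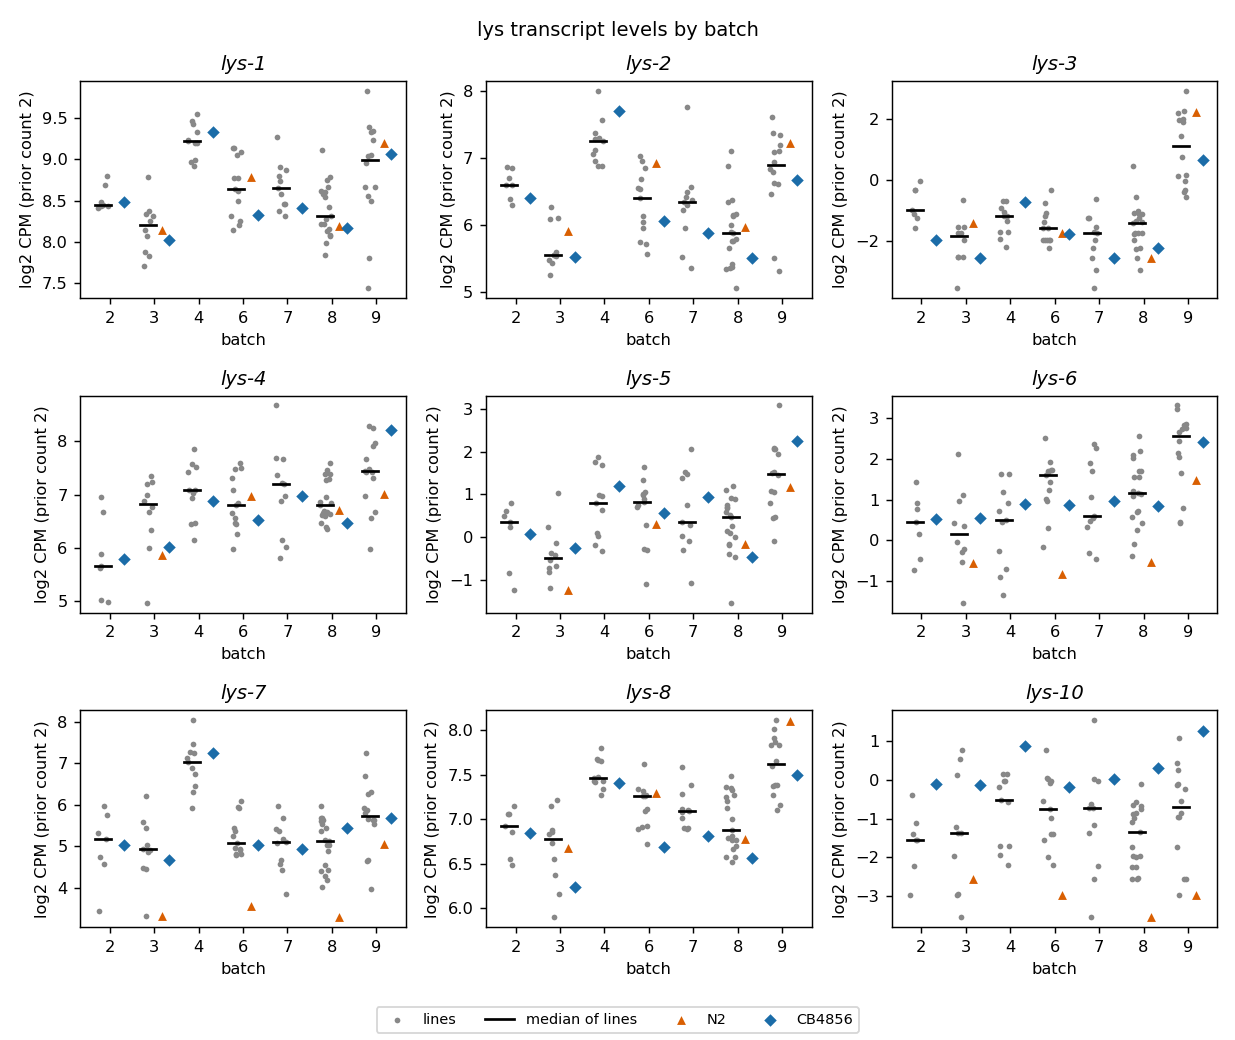
Level of each lys gene in log2 CPM (prior count 2) by batch, with lines as grey points, their median as a bar, and the N2 (triangle) and CB4856 (diamond) libraries of the batch beside them. Batch 9 stands high for lys-3, lys-5 and lys-6 in the lines and both parents, and batch 4, which holds no N2 library, for lys-7 in the lines and CB4856, while lys-10 stays low in N2 in every batch that holds it.

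Which lys genes vary together was examined across the 85 lines. By Spearman's rho, 20 of the 36 pairs passed a two-sided permutation test (100000 resamples) after adjustment over the 36. Only pairs of lys genes were tested, so the rate over all pairs of genes is not known. With values centred within batch and permuted within batch 14 pairs passed by rho, all 14 positive and all among the 20. By Pearson's r on the same values lys-1 with lys-4 (0.23, permutation, adjusted p = 0.104), lys-2 with lys-7 (0.23, 0.111) and lys-1 with lys-10 (0.19, 0.209) did not pass. By r lys-2 and lys-5 had a negative relation that passed (-0.34, permutation, adjusted p = 0.00939), while their rho was -0.22 (adjusted p = 0.117). A set formed by lys-1, lys-2, lys-4, lys-7 and lys-8 held 9 of the 14 pairs that passed by rho. That set was picked from these same relations, so its count carries no test. The genes outside it, lys-3, lys-5, lys-6 and lys-10, were the low ones, where counting error adds to the spread. A further 4 of the 14 pairs joined lys-10 to members of that set, with a within-batch rho of 0.44 for lys-7 (permutation, adjusted p = 0.00036), 0.34 for lys-4 (0.00736), 0.29 for lys-1 (0.0296) and 0.29 for lys-8 (0.0303). lys-1 and lys-8, on different chromosomes, had a rho of 0.84 and an r of 0.81 pooled, and a rho of 0.82 and an r of 0.76 within batches. Each had a permutation p of 1e-05, the smallest 100000 resamples can give, and an adjusted p of 3.6e-05 pooled and at most 6e-05 centred. Their r was positive in 7 of 7 batches, from 0.47 to 0.93, and pooled r was 0.86 without the 2 lines farthest from the median. For the neighbours lys-1 and lys-2, rho was 0.88 and r 0.87 pooled, and 0.78 and 0.81 within batches, with the same p-values.

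lys-5 and lys-6 formed a pair of their own. Their rho was 0.71 and their r 0.71 pooled, and 0.70 and 0.68 within batches (permutation p = 1e-05 each, adjusted p 3.6e-05 pooled and at most 6e-05 centred). Their r was between 0.36 and 0.88 in the 7 batches, and was 0.69 pooled without the 2 farthest lines. lys-4, next to them in the same run, did not share this. Its within-batch rho was 0.05 with lys-5 (permutation, adjusted p = 0.679) and -0.21 with lys-6 (adjusted p = 0.132). Pooled over batches, lys-4 and lys-5 had a rho of 0.29 (permutation, adjusted p = 0.0132). lys-3 was related to lys-2, lys-5, lys-6 and lys-8 in the pooled data (rho 0.31 to 0.34), and to no lys gene within batches.

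The set of 5 also moved with the summed level of the intestine list. That sum leans on 1 gene. In the parents asp-1 alone averaged 3109 CPM of a summed 5336 CPM in N2, and 3288 CPM of 5340 CPM in CB4856. Of 36 relations with the summed levels of 4 lists (intestine, moult and cuticle, sperm, yolk), 7 passed pooled and 9 centred within batch (Spearman, permutation, adjusted over the 36). Only lys genes were set against the lists, so the rate over all genes is not known. Within batches the rho with the intestine list was 0.80 for lys-8, 0.71 for lys-1, 0.58 for lys-4, 0.51 for lys-7 and 0.48 for lys-2. For lys-8, r was 0.71 and rho 0.66 pooled, and r was 0.81 and rho 0.80 within batches (permutation p = 1e-05 each, adjusted p at most 0.00012). Its r with that list lay between 0.58 and 0.91 in the 7 batches. lys-5, lys-6 and lys-3 had within-batch rho of -0.04, -0.10 and -0.10 with the list and did not pass. lys-10 passed pooled (rho 0.29, adjusted p = 0.0399) but not within batches (rho 0.23, adjusted p = 0.126). Within batches, lys-1 (0.51), lys-4 (0.45) and lys-8 (0.41) were also related to the sperm list and lys-7 (0.38) to the yolk list. The part of tissue composition or developmental timing in these relations was not tested.

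**Figure D4:**
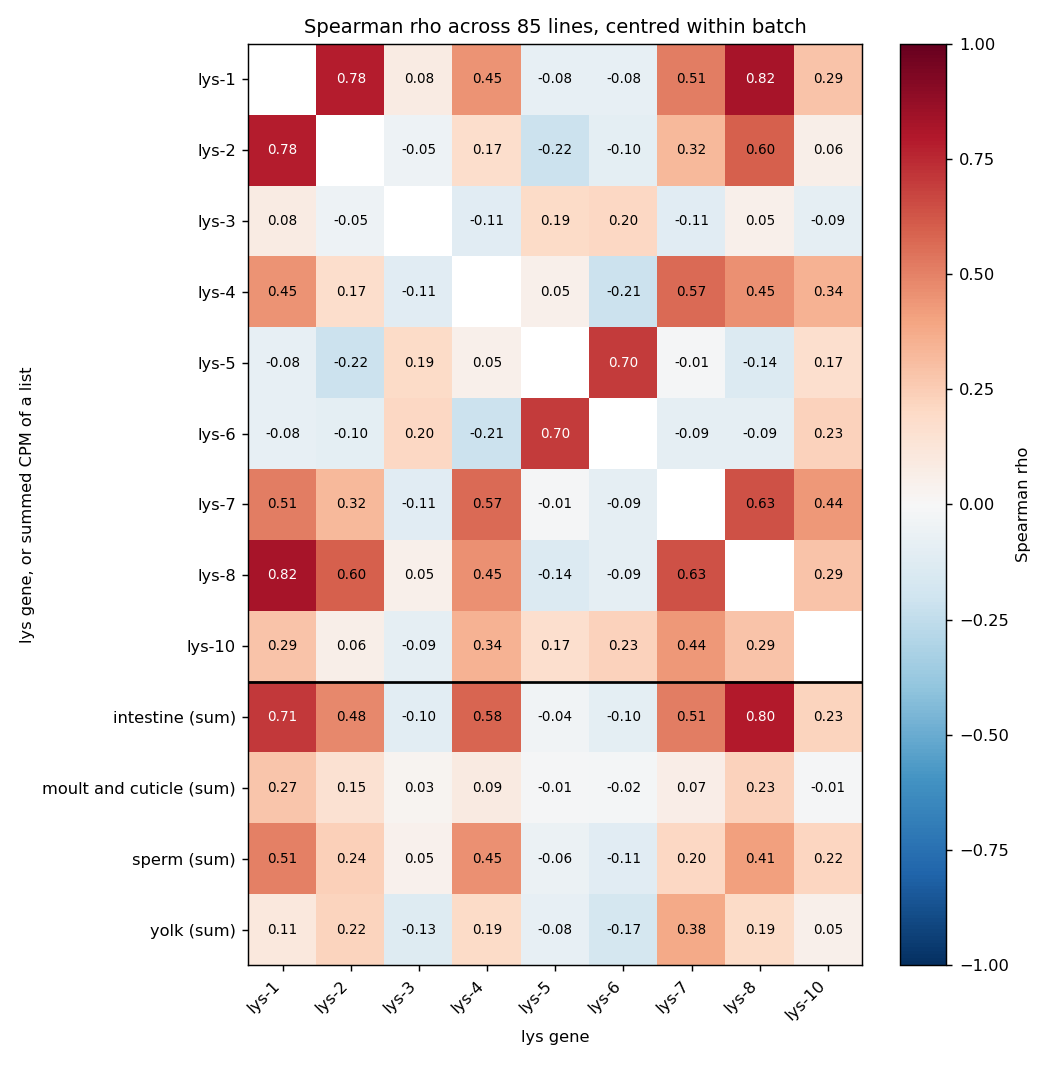
Spearman's rho across the 85 lines, after centring log2 CPM within batch, between the lys genes (upper block) and between each lys gene and the summed CPM of 4 lists (lower block). lys-1, lys-2, lys-4, lys-7 and lys-8 have positive values with one another, lowest at 0.17 for lys-2 and lys-4, and with the intestine list, and lys-5 and lys-6 to each other at 0.70.

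For each lys gene the genes with the most similar pattern were found by within-batch rho over the 85 lines, among 16029 others. These values are descriptive, and all points share batch centring and library. For each of lys-1, lys-2, lys-4, lys-7 and lys-8, the 20 genes with the largest absolute rho were all positive. The lowest rho among the 20 was 0.79 for lys-1, 0.76 for lys-8, 0.66 for lys-2, 0.62 for lys-7 and 0.61 for lys-4. lys-1 was most like kqt-2 (rho 0.85), a potassium channel gene, then F54D5.4 (0.84) and F56F10.1 (0.83). lys-8 was most like T08B1.1 (0.84), lys-1 (0.82) and T21H3.1 (0.81). lys-2 was most like lys-1 (0.78), F53C11.1 (0.75) and C49C3.9 (0.74). lys-7 was most like nspg-8 (0.78), C01B10.6 (0.72) and the C-type lectin gene clec-50 (0.66). lys-4 was most like the saposin-like gene spp-8 (0.69), the kinase gene sgk-1 (0.67) and rskn-2 (0.65). lys-3 had no close match, with kreg-1 highest at 0.51, then F13B6.1 and oac-31, both at 0.49.

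lys-6 was most like F22B3.10 (rho 0.82), F22B3.5 (0.81) and C47A4.1 (0.78), all on chromosome IV. lys-5 was most like lys-6 (0.70), dhs-31 (0.63) and F22B3.10 (0.61), again all on IV. Of the 20 genes with the largest absolute rho, 15 for lys-6 and 14 for lys-5 lay within 2 Mb of the gene, where 5.17% of the tested genes lie. For each of lys-5 and lys-6, 13 of the 20 had a positive rho and the others a negative one. All 20 for lys-6 and 19 for lys-5 were on IV, which holds 17.05% of the genes. For lys-1, lys-4, lys-7 and lys-8, 0 of the 20 lay within 2 Mb. The count by position was chosen after the values were seen and was not tested.

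lys-10 was most like ilys-2 (rho 0.75), an invertebrate-type lysozyme gene elsewhere on chromosome IV (2467678 to 2468879), then fbxa-54 (0.52) and sel-15 (0.51), both on III. Of the 20 genes with the largest absolute rho, 1 lay within 2 Mb of lys-10 itself. On III, 12 lay between 3321 and 1275613, a stretch with 1.16% of the tested genes. Of the 20, 13 had a positive rho with lys-10, as had 6 of the 12 in that stretch, and the others had a negative rho. That stretch was picked as the densest, so its count carries no test. ilys-2 ranged from 0.298 to 17.3 CPM in the lines, with a median of 2.42 CPM. In N2 it ranged from 0.0428 to 1.10 CPM and in CB4856 from 1.61 to 24.3 CPM, so the parental ranges were apart for ilys-2 as for lys-10.

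**Figure D5:**
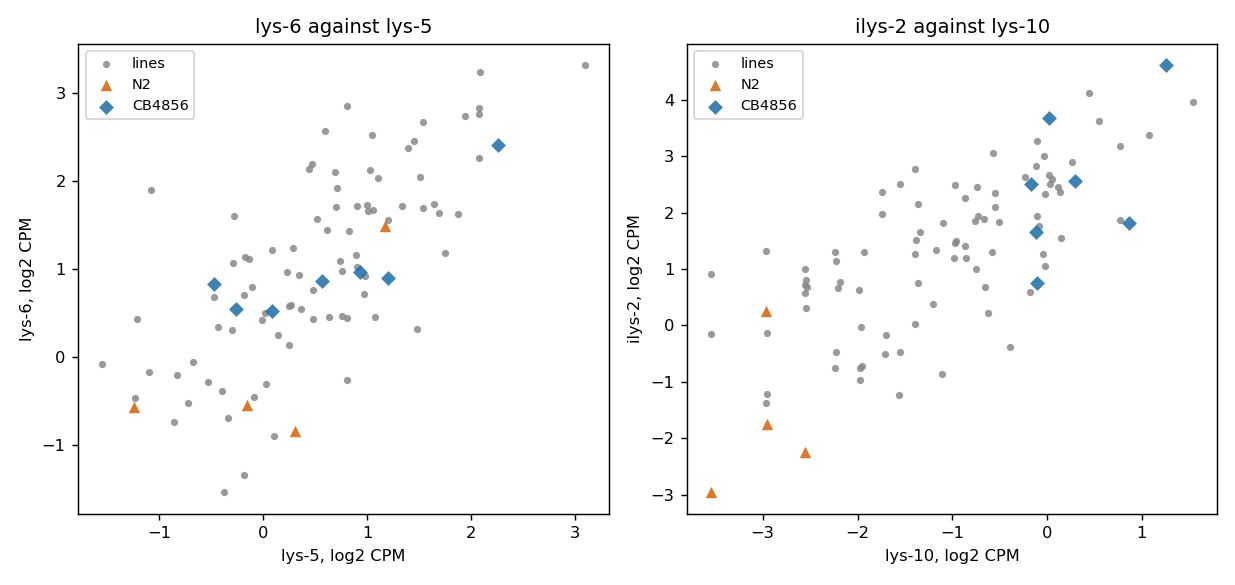
Levels in log2 CPM (prior count 2) of lys-6 against lys-5 and of ilys-2 against lys-10 in the 85 lines (grey), N2 (triangles) and CB4856 (diamonds). Within-batch rho over the lines was 0.70 and 0.75, and the N2 libraries lie at the low end of the lys-10 axis.

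Other antimicrobial genes and known regulators were compared between N2 and CB4856 in the same edgeR fit, in which 33.9% of all genes tested were called and 17.9% were higher in N2. Of 4 invertebrate-type lysozymes tested, 1 was higher and 2 were lower in N2. ilys-2 averaged 0.372 ± 0.493 CPM in N2 (SD, n = 4) and 8.08 ± 8.01 CPM in CB4856 (n = 7), and was lower in N2 by the test (log2 -4.46 ± 1.00 SE, adjusted p = 0.00630, edgeR). ilys-3, which acts in the digestion of bacteria, had a log2 fold change of -5.68 ± 1.62 (adjusted p = 0.0193, edgeR) and ilys-4 of 0.68 ± 0.24 (adjusted p = 0.0427, edgeR). Of 16 saposin-like genes 3 were higher in N2 and 0 lower, led by spp-14 at 339 ± 36.8 CPM in N2 and 198 ± 34.4 CPM in CB4856, with spp-22 (log2 0.94) and spp-16 (0.44). Of 18 epidermal and ABF antimicrobial peptide genes, 2 were higher in N2, nlp-24 (log2 0.59) and cnc-8 (0.35), and 1 was lower, abf-4 (-3.53). Neither of 2 thaumatin-like genes was called, and thn-2 had a log2 fold change of -0.73 ± 0.57 (adjusted p = 0.337, edgeR).

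Of 24 regulators of lysozyme genes, 1 was higher and 5 were lower in N2, and 33.9% of all genes tested were called in either direction. daf-2, the insulin receptor gene, averaged 55.6 ± 8.50 CPM in N2 (SD, n = 4) and 81.2 ± 8.79 CPM in CB4856 (n = 7), and was lower in N2 by the test (log2 -0.58 ± 0.11 SE, adjusted p = 0.00289, edgeR). age-1, the PI3 kinase acting below it, had a log2 fold change of -0.50 ± 0.11 (adjusted p = 0.00459, edgeR). daf-4, the type II TGF-beta receptor gene, had a log2 fold change of -0.35 ± 0.07 (adjusted p = 0.00314, edgeR).

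The stage and tissue lists were counted in the same fit, against the same 33.9% of all genes called. Of 10 intestinal genes 0 were called, and asp-1, the most abundant, had a log2 fold change of -0.12 ± 0.25 (SE). Of 15 moult and cuticle genes 1 was higher in N2, the protease gene nas-37 (log2 0.31 ± 0.11). Of 6 yolk genes 1 was higher in N2, vit-3 (log2 2.59 ± 0.37). The sperm genes with the smallest p were spe-27 (log2 1.66), spe-11 (1.99) and fer-1 (1.58), all higher in N2. Among oocyte genes these were puf-5 (log2 -0.59), egg-2 (-0.57) and the yolk receptor gene rme-2 (-0.52), all lower in N2. Beyond the fits with the moult and cuticle sum as a covariate, the part of stage in the differences of the lys genes was not tested.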

How the data were processed

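Whole animals of 85 recombinant lines, N2 and CB4856 were sequenced on a BGISEQ-500. The authors deposited raw read counts per gene, and the submitters' processing notes name STAR 2.73a and the WBcel235 build; the annotation release is not given in the sources used here. In the layout of STAR's gene counting, multimapped and ambiguous reads were kept apart from genes, so near-identical copies may be undercounted, and reads of CB4856 alleles were counted against a reference built from N2. The ratio of the strand columns was 0.957 to 1.04, so the unstranded column was used, and antisense partners cannot be told apart. Per library, 92.6% ± 0.627 of reads were in genes (SD, n = 96), 5.24% mapped to several places, and reads naming no gene stayed out of library sizes. The total was 23329114 ± 430477 gene counts. Of 4560 pairs of libraries none agreed within sampling noise (lowest chi-square per degree of freedom 7.22). Symbols and positions come from the Ensembl annotation, which held 46817 of the 46904 identifiers.

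The tests ran in R 4.3.3 with edgeR 4.0.16 (filterByExpr, TMM, robust quasi-likelihood, two-sided, adjusted over all genes tested, threshold 0.05); DESeq2 1.42.0 was an alternative. The parental comparison used the 11 parental libraries, that of the lines with the parental midpoint used all 96, and that of batches used the 85 lines. CPM uses library totals, and log2 CPM a prior count of 2. Titles give the batch, which therefore pairs N2 and CB4856 libraries; the correlation of their deviations was 0.298, 0.0819, 0.569 and 0.148 in batches 3, 6, 8 and 9. Permutations of correlations were drawn with numpy 2.4.6, on ranks from scipy 1.17.1. The alternatives tried were other size factors, DESeq2, no count filter, batch as a block, a moult covariate, another prior count, and leaving out libraries or batches. Scripts were tested on simulated data. Members, lists and tests were chosen with earlier results of these data known. All 9 lys genes are described; from each other list up to 3 called genes with the smallest p are named, or else the most abundant gene, and for likeness the 3 genes with the highest rho. Genes of a list not found (thn-3) were left out. Intervals cover counting error only.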

Additional observations from a re-analysis of the deposited data

Results flagged for a closer look

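In 18 groups of parental libraries (9 lys genes in each strain), the highest or lowest library was compared with the others by Dixon's test, and 9 values stood apart at the 95% level; chance gives about 1 in 20 groups. Of these 9, 7 came from a library of batch 9. In N2, the batch 9 library stood high for lys-3 at 4.67 CPM, lys-6 at 2.72 CPM and lys-7 at 33.03 CPM. The same N2 library differed in stage and germline lists, with summed levels of 85.0 CPM of sperm genes (182 to 319 in the other N2 libraries), 66.2 CPM of moult and cuticle genes (167 to 444) and 15407 CPM of oocyte genes (10157 to 13049); their part in the lys values was not tested. In CB4856, the batch 9 library stood high for lys-3 at 1.49 CPM, lys-4 at 298 CPM, lys-5 at 4.69 CPM and lys-6 at 5.24 CPM. The CB4856 library of batch 4 stood high for lys-2 at 209 CPM and lys-7 at 152 CPM. The lines of batch 9 were the highest of all batches for lys-3, lys-4, lys-5 and lys-6, and those of batch 4 for lys-2 and lys-7. What sets these batches apart was not tested.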

How the results depend on the processing

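Among the 8 lys genes tested between N2 and CB4856, the number called was 2 with DESeq2 or its size factors, 1 without a count filter or with the moult covariate, 5 under the replicate block by batch, and 3 without both libraries of batch 9, against 2 as reported; leaving out 1 library gave 1 to 3. lys-10 was called between the parents under every alternative run, at log2 -5.23 to -4.33 when 1 library was left out. Values near 0 changed sign. For N2 over CB4856, lys-1 became -0.0164 with DESeq2 or its size factors, -0.0136 without a count filter and -0.16 without both libraries of batch 9, where lys-2 was -0.0909 and lys-4 was 0.0375. Leaving out 1 library gave -0.24 to 0.19 for lys-1, -0.12 to 0.54 for lys-2, -0.37 to 0.16 for lys-4, -1.24 to -0.25 for lys-5 and -0.0116 to 0.53 for lys-8. Against the midpoint no setting called a lys gene. There lys-3 was 0.28 with the replicate block, and 0.11, 0.0683, 0.12, 0.11 and 0.19 without the lines of batches 3, 4, 6, 7 and 8; without those of batch 9 it was -1.23 ± 0.34 (SE), the furthest from the reported -0.03 in these omissions. lys-2 was 0.0781, 0.0168, 0.0117 and 0.12 without those of batches 3, 6, 7 and 8. Without the lines of batch 4 lys-1 was -0.0269, and without those of batch 9 lys-5 was -0.0236 and lys-8 -0.0406. Leaving out 1 parental library gave -0.10 to 0.17 for lys-2, -0.23 to 1.33 for lys-3 and -0.0095 to 0.27 for lys-8 against the midpoint. The cause of these changes was not tested. Over batches 8 lys genes were called under every alternative. Spread ratios above 1 numbered 3, and 3 to 5 without 1 parental library: without the N2 library of batch 3 or 9, or the CB4856 library of batch 4 or 9, there were 5. The number of related pairs was 14 both when centred and without the lines of batch 9, and 21 with a prior count of 0.5. With that prior count the pooled rho values were unchanged and the permutations were drawn anew. The added pair was lys-5 with lys-10 (rho 0.24), whose adjusted permutation p was 0.0520 before and 0.0491 in the new draw. Relations with lists numbered 11 without batch 9 and 7 with the prior count of 0.5. lys-3 and lys-10 rest on few counts, and for lys-10 in N2 depth limits the fold.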
